A study of Mus musculus with 12 samples.

Results

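Interferon-inducible GTPases are guanylate-binding proteins and immunity-related GTPases, enzymes that cells make in quantity once interferon has reached them. The 9 genes described here, Gbp2, Gbp3, Gbp5, Gbp7, Gbp9, Irgm1, Irgm2, Igtp and Iigp1, were listed by name from these families and matched to the Ensembl gene IDs of the count files by mouse gene symbol. Of these 9, 8 have an ID among the 37991 in the files, and the same 8 are among the 15327 genes that passed the filter on low counts and were tested. Gbp5 has no match under its current ID, so its expression was not analysed, and only its promoter was read.

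The study concerns E2F1, a transcription factor that can be acetylated on lysines. Primary mouse embryonic fibroblasts (MEFs) of the FVB strain, taken at embryonic day 13.5 and used at passage 3, were either wild type or homozygous for E2f1 3KR. This knock-in allele encodes arginine in place of the 3 lysines. Cells were left untreated or were given neocarzinostatin (NCS), a drug that breaks DNA as ionizing radiation does, and RNA was sequenced. Untreated wild-type MEFs form the first group of 3 samples, and wild-type MEFs given NCS at 250 ng/ml for 3 h form the next. Untreated E2f1 3KR/3KR MEFs (3KR below) and 3KR MEFs given the same dose of NCS for 3 h complete the 4 groups, each of 3 samples.

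The model has limits that the methods of the study give. The knock-in line was made with a zinc finger nuclease and goes back to a founder mouse whose offspring were backcrossed to wild-type mice. The study kept its own colony of knock-in animals, while its wild-type animals came from a supplier. Embryos came from matings of heterozygous or of homozygous mice, and the labels do not say which embryos or litters gave which samples. A difference between the genotypes here is thus a difference between these cultures.

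As background, guanylate-binding proteins and immunity-related GTPases defend a cell against bacteria and parasites inside it, by collecting on the membranes of the vacuoles that hold them, and guanylate-binding proteins also coat bacteria in the cytosol. Among the immunity-related GTPases, Irgm1, Irgm2 and Igtp (also called Irgm3) are regulators that sit on the membranes of the cell itself and keep effectors such as Iigp1 (also called Irga6) inactive there, and the effectors load onto the vacuole and break it. Interferon gamma switches these genes on in part through IRF1, and type I interferons do so through a complex called ISGF3.

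The files held from 33203757 to 45279321 counted reads per sample, with a median of 37623686. At these depths 3 counts, used here as the floor for counting error alone, equal 0.0663 to 0.0904 CPM, read counts scaled to the library total. For this floor the total is that of all counted reads, and other CPM values use the library sizes given with the processing. Each of the 8 analysed members lay above that floor in all 12 samples. Values below are normalized counts, in which the DESeq2 size factor of the sample is divided out, unless another scale is named. A log2 fold change comes with its standard error (SE) and with an FDR, the p-value of the quasi-likelihood F test of edgeR adjusted by the Benjamini-Hochberg method over the 15327 tested genes. A gene is called where the FDR is under 0.05.

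The targeted gene was looked at first. E2f1 held 1042, 1099 and 1296 normalized counts in the untreated wild-type samples and 1125, 1111 and 1128 in the untreated 3KR samples. After NCS it held 1173, 1261 and 1277 in wild-type MEFs and 1259, 1167 and 1243 in 3KR MEFs. The genotypes overlapped in both treatments, and gene counts cannot show the change from lysine to arginine, so these values do not tell the genotypes apart.

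The samples do differ by sex-linked genes. Xist, the RNA of the inactive X chromosome, ranged from 32.3 to 62.5 normalized counts across the 6 wild-type samples. Across the 6 samples of 3KR MEFs it ranged from 30590.1 to 35635. Ddx3y, on the Y chromosome, ranged from 5370.3 to 5822 in wild-type MEFs and was at most 16.2 in 3KR MEFs. Of the 5 sex-linked genes listed, 1 was called higher and 4 lower in untreated 3KR MEFs. Sex and genotype therefore cannot be told apart in any comparison of the genotypes given here.

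Replicate 3 of the wild-type MEFs stands apart from the other wild-type replicates in both treatments. Between replicates of a group, a chi-square per gene that compares their counts was 2.04 to 2.34 in every pair without that replicate. In the pairs with it, the same measure was 9.37 and 9.27 in untreated wild-type MEFs and 7.57 and 8.09 after NCS. The member counts below were therefore also made without replicate 3 of both wild-type groups, a choice made after seeing the data. Without it, the numbers of members called in each direction were the same as with it in all 5 comparisons: 6 higher and 2 lower for genotype in untreated MEFs, 4 and 2 for genotype after NCS, 1 and 1 for the wild-type response to NCS, 0 and 4 for the 3KR response, and 0 and 1 for the difference in response. Over all genes more were called without it, in the same order 7593, 7735, 5083, 6187 and 1842. With it the numbers over all genes were 7007, 7131, 4090, 4721 and 572.

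The first comparison asks how 3KR and wild-type MEFs differ with no treatment. Of the 8 members tested, 6 were called higher in untreated 3KR MEFs, where 22.1% of all tested genes were, and 2 were called lower, where 23.6% of all tested genes were. The median log2 fold change of the members was 0.82, beside -0.00 over all tested genes. The 3KR samples lay wholly above the wild-type samples for 6 members and wholly below them for 2, and the groups were apart in this way for 53.5% of all tested genes. Each of the 8 kept its direction and its call in this comparison under the 13 alternatives tried, which include leaving out each of the 6 samples. The samples are bulk cultures, so more RNA per cell and more cells that carry the RNA cannot be told apart.

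Irgm1, a regulator that protects the membranes of the cell from the effectors, was lower in 3KR MEFs. It held 1865, 2040.1 and 2241 normalized counts in the untreated wild-type samples and 1174, 1154 and 1266 in the untreated 3KR samples. The lowest wild-type sample lay far above the highest 3KR sample. The log2 fold change was -0.78 (SE 0.0569, FDR 5.98e-11), which is 1.71-fold lower in 3KR MEFs. Leaving out a sample moved it between -0.84 and -0.71.

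Irgm2, a regulator of the same subfamily, went the other way. Its counts were 139, 157 and 143 in untreated wild-type MEFs and 365, 344 and 380.1 in untreated 3KR MEFs. Every 3KR sample held more than any wild-type sample by a wide margin. Its log2 fold change of 1.31 (SE 0.0940, FDR 4.29e-11) is a 2.47-fold higher level in 3KR MEFs.

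Igtp, the remaining regulator, was also higher. It held 73.7, 70.0 and 49.7 normalized counts in untreated wild-type MEFs, and 223, 229.8 and 218 in untreated 3KR MEFs. The wild-type samples were spread more than the 3KR samples, with replicate 3 the lowest, and the groups were far apart. Igtp was 3.42-fold higher, a log2 fold change of 1.77 (SE 0.165, FDR 4.05e-09). The gene models of Igtp and Irgm2 overlap on the same strand in the annotation, so reads of the shared stretch cannot be assigned to either gene with certainty.

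Iigp1, the effector among the members, is the protein that loads onto a vacuole and disrupts it. Untreated wild-type MEFs held 30.7, 28.4 and 29.0 normalized counts of it and untreated 3KR MEFs held 129, 131 and 119. Within each genotype the samples lay close together, and no sample of either came near the other. The log2 fold change of 2.09 (SE 0.184, FDR 1.45e-09), or 4.26-fold, was the highest of the 8 members in this comparison.

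Among the guanylate-binding proteins, Gbp2 was the only analysed gene called lower, against Gbp3, Gbp7 and Gbp9 called higher. It held 661, 637 and 648 normalized counts in untreated wild-type MEFs and 428, 421 and 511 in untreated 3KR MEFs. Replicate 3 of the 3KR MEFs stood above the other 3KR replicates and still below each wild-type sample. Gbp2 was 1.43-fold lower in 3KR MEFs, a log2 fold change of -0.52 (SE 0.0715, FDR 1.98e-06), and without that replicate the value was -0.62.

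Gbp7, which lies in the same gene cluster as Gbp2 and also belongs to the guanylate-binding proteins, was higher. Its counts were 124, 119.7 and 121 in untreated wild-type MEFs and 221, 237 and 228 in untreated 3KR MEFs. The replicates lay close together, with standard deviations (SD) of 2.34 and 8.22, and far from the other genotype. Gbp7 was 1.87-fold higher, a log2 fold change of 0.90 (SE 0.113, FDR 4.71e-07).

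Gbp3 and Gbp9 differed less than Gbp7. Gbp3 held 80.7 to 100.4 normalized counts in untreated wild-type MEFs and 128 to 143 in untreated 3KR MEFs (log2 fold change 0.57, SE 0.133, FDR 0.00108). Gbp9 held 44.5 to 58.8 in untreated wild-type MEFs and 73.6 to 99.8 in untreated 3KR MEFs (log2 fold change 0.74, SE 0.181, FDR 0.00171). The gene model of Gbp9 overlaps those of Gbp4 and Gbp8 on the same strand, and guanylate-binding proteins share sequence with each other, so which gene gave the reads of Gbp9 is uncertain.

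**Figure D1:**
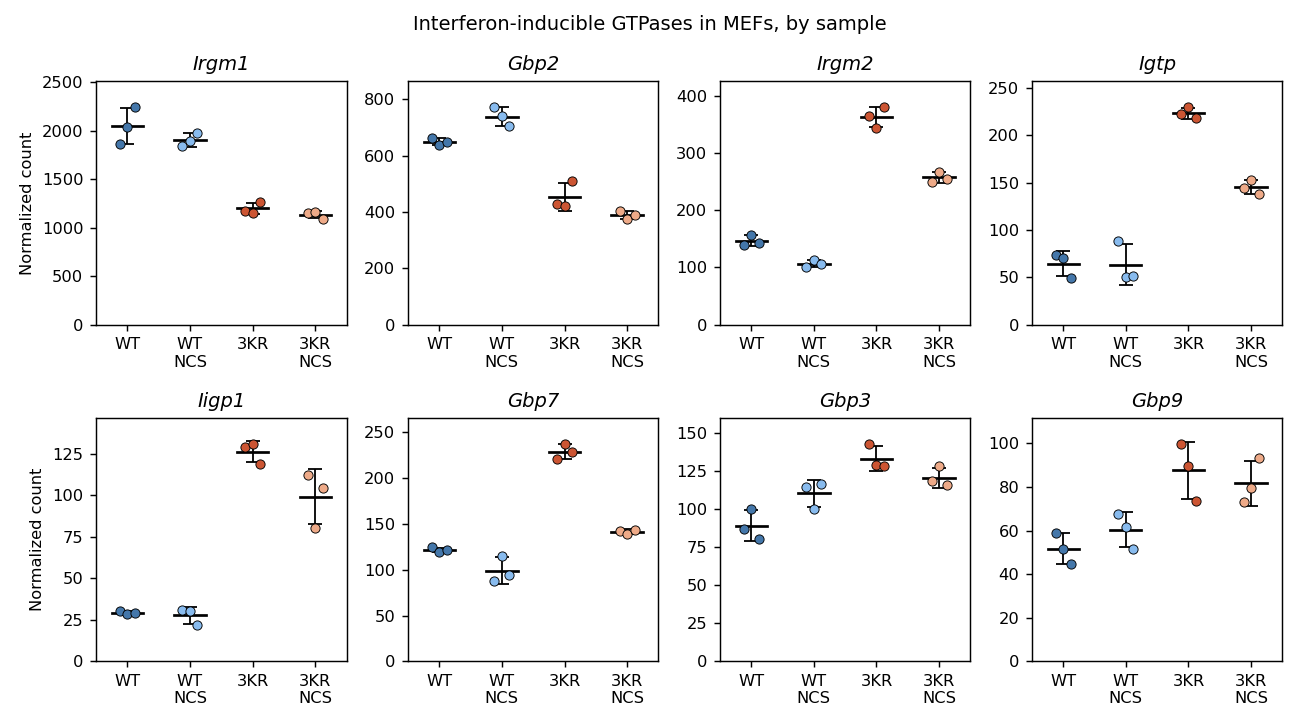
Normalized counts (vertical axes, each from 0) of the 8 analysed members in the 12 samples, with 1 point per sample, 4 groups along the horizontal axes, and bars at the group mean ± SD. Gbp2 and Irgm1 sit lower in both 3KR groups, and Irgm2, Igtp and Iigp1 sit higher in both.

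The same genotypes were compared after NCS. This comparison shares no sample with the untreated comparison, but both enter the difference in response given further on. Of the 8 members, 4 were called higher in 3KR MEFs after NCS (Gbp7, Irgm2, Igtp and Iigp1), where 22.9% of all tested genes were. Gbp2 and Irgm1 were called lower, 2 of the 8, where 23.6% of all tested genes were. The median log2 fold change of the members was 0.47, beside 0.00 over all tested genes, and the samples of the genotypes were apart for 7 members, all but Gbp3, and for 54.3% of all tested genes.

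Among the regulators, Irgm1 held 1839, 1892 and 1977 normalized counts in NCS-treated wild-type MEFs and 1147, 1163 and 1092 in NCS-treated 3KR MEFs. The gap between genotypes was close to that without treatment, a log2 fold change of -0.75 (SE 0.0580, FDR 1.98e-10). Irgm2 held 101, 113 and 105 in NCS-treated wild-type MEFs and 250.1, 267 and 254 in NCS-treated 3KR MEFs. Again no samples of the genotypes overlapped, and the log2 fold change was 1.26 (SE 0.104, FDR 4.97e-10). Igtp held 88.2, 50.7 and 51.7 in wild-type MEFs and 145, 153 and 139 in 3KR MEFs after NCS, with wild-type replicate 1 high. Its log2 fold change was 1.20 (SE 0.177, FDR 5.47e-06), and without wild-type replicate 1 it was 1.504.

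The effector Iigp1 held 30.8, 30.4 and 21.9 normalized counts in NCS-treated wild-type MEFs and 112, 80.5 and 104 in NCS-treated 3KR MEFs. Both groups were wider than their untreated counterparts, yet the lowest 3KR sample stayed well above the highest wild-type sample. The log2 fold change was 1.84 (SE 0.193, FDR 3.36e-08), or 3.58-fold.

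Of the guanylate-binding proteins after NCS, Gbp2 held 772, 740.3 and 704 normalized counts in wild-type MEFs and 404, 376 and 389 in 3KR MEFs. The groups were farther apart than without treatment, and Gbp2 was 1.89-fold lower in 3KR MEFs, a log2 fold change of -0.92 (SE 0.0731, FDR 2.88e-10). Gbp7 held 87.1, 115 and 94.5 in wild-type MEFs and 142, 139 and 144 in 3KR MEFs. The groups did not overlap, although wild-type replicate 2 came nearer to the 3KR samples, and the log2 fold change was 0.51 (SE 0.125, FDR 0.00170).

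Gbp3 and Gbp9 were not called after NCS. Gbp3 held 100.5 to 116 normalized counts in wild-type MEFs and 116 to 128 in 3KR MEFs, and these ranges overlapped (log2 fold change 0.13, SE 0.133, FDR 0.458). Gbp9 held 51.7 to 67.7 in wild-type MEFs and 72.9 to 93.1 in 3KR MEFs, and its log2 fold change of 0.44 (SE 0.182) missed the threshold at an FDR of 0.0529. Gbp9 passed it with at least 10 counts required in every sample (0.45, FDR 0.0442), without wild-type NCS replicate 1 (0.52, FDR 0.0443) and without 3KR NCS replicate 1 (0.52, FDR 0.0463). Its FDR ranged from 0.0442 to 0.212 over the 13 alternatives.

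The next question is what NCS changed within 3 h in wild-type MEFs. In this comparison 1 of the 8 members was called higher, Gbp2, where 14.3% of all tested genes were, and 1 was called lower, Irgm2, where 12.4% were. The members' median log2 fold change was -0.07, beside 0.01 over all tested genes. The NCS and untreated samples did not overlap for 4 of the 8 members and for 35.1% of all tested genes. The 2 calls are near what the share of all genes would give for 8 genes.

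Irgm2 fell from a group mean of 146 normalized counts (SD 9.55, 3 samples) to 107 (SD 6.07, 3 samples). Every NCS sample lay below every untreated sample, and the log2 fold change was -0.45 (SE 0.110, FDR 0.00322). Gbp2 rose from a mean of 649 (SD 12.03) to 739 (SD 34.2), with all 3 NCS samples above the untreated samples, a log2 fold change of 0.18 (SE 0.0678, FDR 0.0498). That call was lost with the Wald test of DESeq2 (FDR 0.0764), with no filter on low counts (0.0634), with at least 10 counts in every sample (0.0659) and with only the samples compared (0.0733). It was also lost without untreated replicate 1 (FDR 0.0797), 2 (0.131) or 3 (0.0692), and without NCS replicate 1 (0.184) or 2 (0.112), while the log2 fold change stayed between 0.15 and 0.21. The FDR over the 13 alternatives ran from 0.0250 to 0.184.

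The other 6 members were not called in wild-type MEFs after NCS. Gbp3 (0.30, SE 0.136, FDR 0.109) and Gbp7 (-0.30, SE 0.125, FDR 0.0839) moved in opposite directions, each with its groups just apart. Gbp7 passed the threshold without NCS replicate 2 (-0.43, FDR 0.0269), and its FDR ran from 0.0269 to 0.287. Irgm1 changed by -0.11 (SE 0.0547, FDR 0.157) with its groups overlapping. It passed the threshold without untreated replicate 1 (-0.17, FDR 0.0234) and with the replicate block (FDR 0.0458), and its highest FDR was 0.632. For Gbp9, Igtp and Iigp1 the log2 fold changes were 0.21, -0.04 and -0.09, all with FDR of at least 0.469 and with groups that overlap. Those of Igtp and Iigp1 changed sign when some samples were left out.

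In 3KR MEFs the same treatment was read in the same way, and the test between the genotypes follows further on. By edgeR, 0 of the 8 were called higher, where 15.8% of all tested genes were, and 4 were called lower (Gbp2, Gbp7, Irgm2 and Igtp), where 15.0% were. At an unadjusted p under 0.05, 0 were higher and 5 lower, beside 6127 of the 15327 tested genes in either direction. The Wald test of DESeq2 called 0 members higher and 4 lower. The median log2 fold change of the members was -0.28, beside -0.00 over all tested genes, and all 8 values were negative. The NCS and untreated samples did not overlap for 5 of the 8 members and for 47.6% of all tested genes, a share not far from that of the members. This comparison uses the same 3KR samples as the genotype comparisons above, so a low value in NCS-treated 3KR MEFs enters both.

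Gbp7 fell from a mean of 229 normalized counts (SD 8.22) to 141 (SD 2.45) in 3KR MEFs. No NCS sample came near an untreated sample, and the log2 fold change was -0.69 (SE 0.112, FDR 4.39e-05), or 1.61-fold lower. Igtp fell from 224 (SD 5.86) to 145 (SD 7.17), again with the groups wide apart, a log2 fold change of -0.62 (SE 0.150, FDR 0.00271). Irgm2 fell from 363 (SD 18.0) to 257 (SD 8.88), a log2 fold change of -0.50 (SE 0.0886, FDR 1.32e-04). Each of these 3 calls held under the 13 alternatives.

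Gbp2 fell from 453 (SD 49.9) to 389.5 (SD 14.2) in 3KR MEFs, the opposite direction from wild-type MEFs. All NCS samples lay below the untreated samples, which replicate 3 widened, and the log2 fold change was -0.22 (SE 0.0771, FDR 0.0332). Without untreated 3KR replicate 3 it was -0.12 (FDR 0.277), without 3KR NCS replicate 2 it was -0.19 (FDR 0.112) and without 3KR NCS replicate 3 it was -0.22 (FDR 0.0819). Over the 13 alternatives the FDR ran from 0.0125 to 0.277. Iigp1 (-0.34, SE 0.155, FDR 0.102) missed the threshold although its 3KR groups did not overlap. Irgm1, Gbp3 and Gbp9 changed by -0.08, -0.14 and -0.09, with overlapping groups and FDR of at least 0.352.

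**Figure D2:**
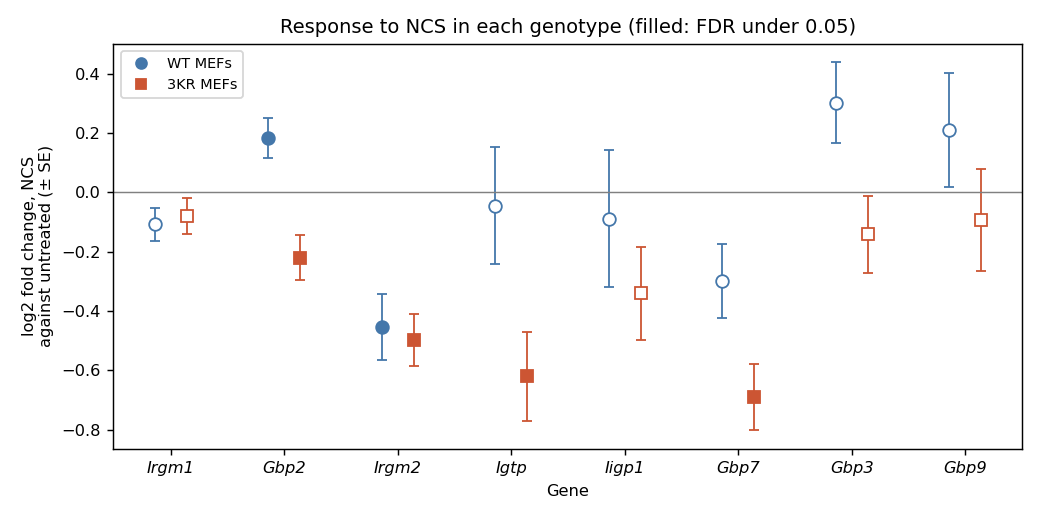
Log2 fold change of NCS against untreated (vertical axis) for each of the 8 members (horizontal axis), in wild-type MEFs (circles) and 3KR MEFs (squares), with bars of ± SE and filled symbols where the FDR was under 0.05. All 8 values in 3KR MEFs are under 0, and Gbp2 is the member with filled symbols on both sides of 0.

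Whether the response to NCS differs between the genotypes was tested directly. Over all tested genes 572 passed, which is 3.73%, and 1 of the 8 members did, Gbp2. The number over all genes was 345 to 1159 with a sample left out, 1379 with the replicate block and 1842 without wild-type replicate 3 in both treatments, so how far 1 of 8 stands from the share of all genes depends on the processing. The difference of Gbp2, the log2 response in 3KR MEFs minus that in wild-type MEFs, was -0.40 (SE 0.103, FDR 0.0271). The call was lost without wild-type untreated replicate 2 (-0.39, FDR 0.0593), wild-type NCS replicate 1 (-0.37, FDR 0.0787) or 2 (-0.40, FDR 0.0593), untreated 3KR replicate 3 (-0.30, FDR 0.117) and 3KR NCS replicate 2 (-0.38, FDR 0.0817) or 3 (-0.40, FDR 0.0669). The FDR over its alternatives ran from 0.00271 to 0.117.

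For the other 7 members no difference in response was shown, which does not mean that there was none. At an unadjusted p under 0.05 there were 4 members, Gbp2, Gbp3, Gbp7 and Igtp, beside 2499 of the 15327 tested genes. The Wald test of DESeq2 called 1 member. The differences were -0.44 for Gbp3 (SE 0.188, FDR 0.233), -0.39 for Gbp7 (SE 0.169, FDR 0.240) and -0.58 for Igtp (SE 0.247, FDR 0.238). Those of Gbp9, Iigp1, Irgm2 and Irgm1 were -0.30, -0.25, -0.04 and 0.03, with FDR of at least 0.618. The fall of Gbp7 and Igtp in 3KR MEFs is thus not shown to differ from their response in wild-type MEFs.

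Levels between genes were compared per exon length, as RPKM, read counts scaled to exon length and library total. In untreated wild-type MEFs Irgm1 had 9.26 RPKM (SD 0.853) and Gbp2 6.77 (SD 0.129), and the next, Irgm2, had 1.04 (SD 0.0671). Below these came Igtp at 0.837, Gbp3 at 0.719, Gbp7 at 0.569, Gbp9 at 0.262 and Iigp1 at 0.132. In this order only the samples of Igtp and Gbp3 overlapped. The wild-type cultures thus held a regulator and a guanylate-binding protein at several RPKM and the effector Iigp1 at the bottom.

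NCS left Irgm1 (8.57 RPKM), Gbp2 (7.69), Gbp7 (0.462), Gbp9 (0.306) and Iigp1 (0.125) in the same places in wild-type MEFs. The members between them, Gbp3 (0.887), Igtp (0.823) and Irgm2 (0.758), overlapped from each to the next.

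In untreated 3KR MEFs the levels were closer together. Irgm1 had 5.39 RPKM and Gbp2 4.71, and their samples overlapped. Igtp followed at 2.89 and Irgm2 at 2.57, then Gbp3 and Gbp7, both at 1.07 and overlapping. Iigp1 at 0.567 RPKM lay above Gbp9 at 0.443, the reverse of their order in wild-type MEFs.

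After NCS the order in 3KR MEFs was Irgm1 (5.11 RPKM), Gbp2 (4.05), Igtp (1.88), Irgm2 (1.82), Gbp3 (0.969), Gbp7 (0.660), Iigp1 (0.446) and Gbp9 (0.414). Igtp overlapped Irgm2, and Iigp1 overlapped Gbp9. The RPKM depends on which exons are counted as the gene. With exons of the basic annotation alone, chosen after seeing the data, Irgm1 in untreated wild-type MEFs had 23.3 RPKM and Iigp1 0.246. On those exons Iigp1 in 3KR MEFs rose above Gbp7 after NCS and overlapped it without treatment, and Irgm1 and Gbp2 no longer overlapped in untreated 3KR MEFs.

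Added together, the 8 members came to 79.8, 84.0 and 88.2 CPM in the untreated wild-type samples and 72.8, 71.5 and 76.5 CPM in the untreated 3KR samples. The sum was thus lower in 3KR MEFs although 6 of its 8 parts were higher. After NCS it was 81.4 CPM in all 3 wild-type samples and 62.7, 62.4 and 61.0 CPM in the 3KR samples. Irgm1 and Gbp2 made up 83.1% to 86.1% of the summed normalized count in untreated wild-type MEFs and 57.6% to 60.8% in untreated 3KR MEFs. After NCS their share was 84.2% to 85.9% in wild-type MEFs and 63.5% to 64.9% in 3KR MEFs.

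The members share chromosomes in part, and this was not used to choose them. In the annotation (GRCm38, used here for gene order only, since the processing notes of the submitters name mm9), Gbp2, Gbp3, Gbp5 and Gbp7 lie in a cluster on chromosome 3. Gbp9 lies among other guanylate-binding protein genes on chromosome 5. Irgm1 lies at a locus of chromosome 11, Igtp and Irgm2 lie at another locus of chromosome 11, and Iigp1 lies on chromosome 18.

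Direction did not follow the chromosome. Within the cluster on chromosome 3, Gbp7 and Gbp3 were called higher and Gbp2 lower in untreated 3KR MEFs. On chromosome 11, Irgm1 was called lower and both members of the other locus higher.

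Other tested genes within 250 kb were then read, and those named next were chosen after their values were seen. Pdlim5, at the end of the chromosome 3 cluster beyond Gbp7, had a log2 fold change of -0.67 (SE 0.0311, FDR 1.32e-14) between genotypes in untreated MEFs. On the other side, Kyat3, Gtf2b and Pkn2 beyond Gbp2 had 0.16, 0.11 and -0.05. After NCS Pdlim5 had -0.58 (FDR 1.92e-13), Pkn2 was called lower (-0.16, FDR 5.18e-04), and Kyat3 (-0.09) and Gtf2b (0.08) were not called.

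Around Irgm1, Trim7, also chosen after its value was seen, had -0.91 (SE 0.147, FDR 1.84e-05) without treatment and -0.31 (SE 0.103, FDR 0.0160) after NCS. The call after NCS was lost without wild-type NCS replicate 1 (FDR 0.0768) or 2 (0.0713) and without 3KR NCS replicate 2 (0.0738) or 3 (0.0528). Rack1 (0.07, FDR 0.196) and Trim41 (-0.06, FDR 0.328), also tested there, were not called without treatment or after NCS (0.05, FDR 0.351, and -0.08, FDR 0.183). Ifi47, an immunity-related GTPase of the effector type that was not in any list, lies at the same locus and was also lower. It held 93.6, 105.5 and 92.1 normalized counts in untreated wild-type MEFs and 81.6, 55.1 and 81.8 in untreated 3KR MEFs. The groups did not overlap and were nearest between wild-type replicate 3 and 3KR replicate 3, and the log2 fold change was -0.41 (SE 0.163, FDR 0.0426). After NCS Ifi47 held 94.3, 113.4 and 98.5 in wild-type MEFs and 60.8, 54.8 and 60.0 in 3KR MEFs, with the groups wide apart (-0.80, SE 0.170, FDR 4.48e-04).

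The call of Ifi47 in untreated MEFs was lost with the Wald test of DESeq2 (FDR 0.111), with no filter on low counts (0.0629), with only the samples compared (0.0704) and with the replicate block (0.0505). It was also lost without wild-type replicate 1 (-0.44, FDR 0.0641), 2 (-0.35, FDR 0.135) or 3 (-0.44, FDR 0.0508) and without 3KR replicate 2 (-0.25, FDR 0.240). Around Igtp and Irgm2, the tested neighbours other than GTPases and predicted genes, from Larp1 to Sh3bp5l, had log2 fold changes of -0.05 to 0.16 in untreated MEFs, and 1 of them, Zfp672, was called (0.16, FDR 0.0368). After NCS they had -0.08 to 0.28, and 1 was called, Zfp692 (0.28, FDR 0.00213), while Zfp672 was not (-0.08, FDR 0.312).

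**Figure D3:**
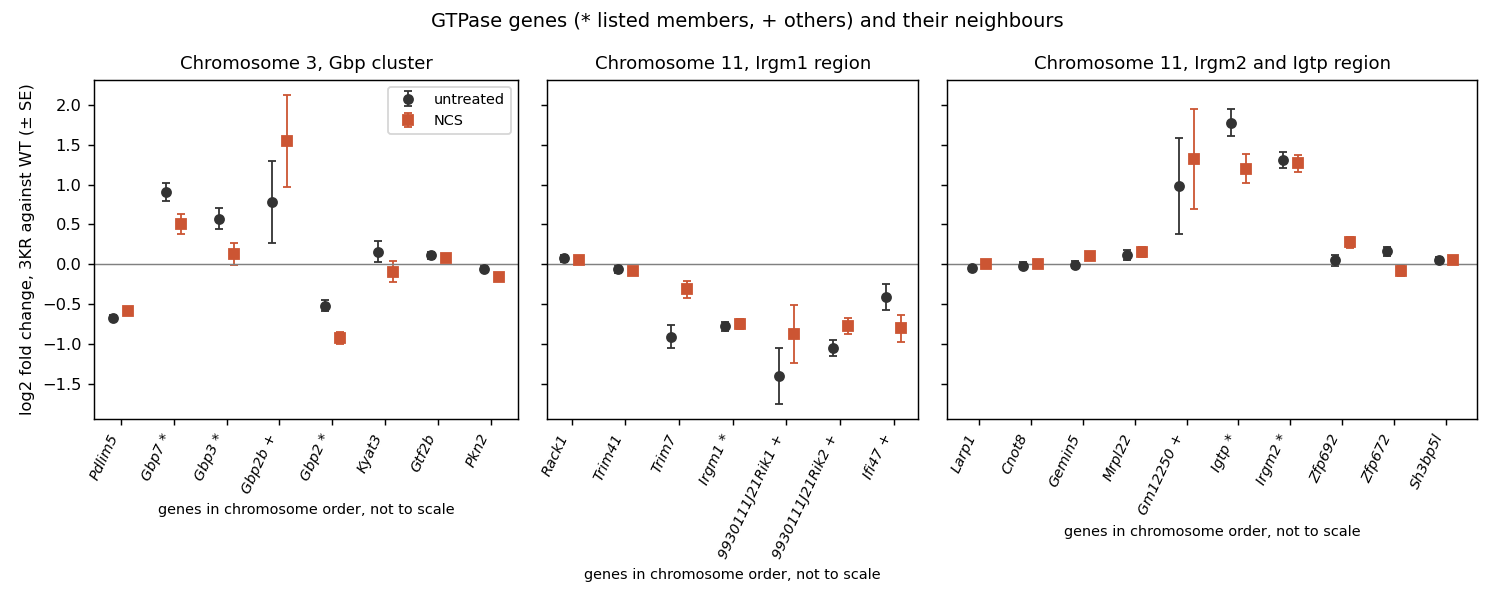
Log2 fold change between genotypes, 3KR over wild type, ± SE (vertical axis), untreated (circles) and after NCS (squares). Members and tested neighbours within 250 kb on chromosomes 3 and 11 stand in chromosome order along the horizontal axis, not to scale. Predicted genes other than Gm12250 are left out, and Gbp9 and Iigp1, on chromosomes 5 and 18, are not drawn. Gbp2 and Irgm1 lie under 0 while Gbp7, Igtp and Irgm2 lie over 0.

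Promoter sequences were matched for 7 of the 9 members in the RefSeq table (GRCm38.p6), with 8 windows in all, since Gbp3 has 2. Gbp9 and Iigp1 have no entry. Each window runs from 250 bases before the start of the gene to 50 after it, and 32851 windows in the table were searched the same way on both strands. The core of the interferon-stimulated response element, written GAAANNGAA, was found in a window of 7 of these 7 members and in 8.56% of all windows. The gamma-activated site, written TTCNNNGAA, was found for 4 members (Gbp5, Gbp7, Igtp and Irgm2) and in 8.30% of all windows.

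The E2F letters TTTGGCGC and TTTCCCGC were found for 0 of the 7 members, and in 0.514% and 1.07% of all windows. The NF-kappaB letters GGNNTTTCC were found for 1, Gbp5, and in 5.82% of all windows. These matches describe letters in a window and show no binding, and a window without a match says only that those letters are not in it.

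Windows are printed for the members that have one and that were called between genotypes in both treatments, cut to the 250 bases before the start of the gene and read 5′ to 3′ on the strand of the gene. Capitals mark the matches to GAAANNGAA, on either strand, and to TTCNNNGAA. Gbp2 (chr3:142620413-142620662, plus strand) and Irgm1 (chr11:48871421-48871670, minus strand) were lower in 3KR MEFs. Gbp7 (chr3:142530086-142530335, plus strand), Igtp (chr11:58199306-58199555, plus strand) and Irgm2 (chr11:58214727-58214976, plus strand) were higher.
Gbp2: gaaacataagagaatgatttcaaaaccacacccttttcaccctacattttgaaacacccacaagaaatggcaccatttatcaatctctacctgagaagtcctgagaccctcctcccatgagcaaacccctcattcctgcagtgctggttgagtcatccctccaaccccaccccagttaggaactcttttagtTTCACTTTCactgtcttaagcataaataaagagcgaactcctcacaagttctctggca
Irgm1: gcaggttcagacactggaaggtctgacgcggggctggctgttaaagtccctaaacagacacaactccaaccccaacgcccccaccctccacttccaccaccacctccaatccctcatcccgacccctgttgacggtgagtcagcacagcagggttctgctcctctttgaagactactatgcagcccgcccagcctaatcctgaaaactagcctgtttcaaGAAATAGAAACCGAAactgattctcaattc
Gbp7: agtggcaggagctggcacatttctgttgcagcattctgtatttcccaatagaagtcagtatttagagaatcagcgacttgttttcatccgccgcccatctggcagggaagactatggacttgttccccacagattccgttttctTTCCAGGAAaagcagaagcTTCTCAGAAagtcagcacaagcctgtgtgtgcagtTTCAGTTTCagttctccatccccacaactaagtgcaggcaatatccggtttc
Igtp: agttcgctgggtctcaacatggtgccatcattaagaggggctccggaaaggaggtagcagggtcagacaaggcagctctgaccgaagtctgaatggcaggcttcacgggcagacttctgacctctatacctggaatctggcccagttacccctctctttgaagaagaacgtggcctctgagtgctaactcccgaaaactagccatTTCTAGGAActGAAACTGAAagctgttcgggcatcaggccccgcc
Irgm2: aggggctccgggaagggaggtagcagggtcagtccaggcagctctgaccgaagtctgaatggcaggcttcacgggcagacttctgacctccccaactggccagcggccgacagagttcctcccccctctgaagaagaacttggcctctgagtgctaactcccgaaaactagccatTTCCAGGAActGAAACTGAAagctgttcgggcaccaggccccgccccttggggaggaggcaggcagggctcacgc

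The first base of the GAAANNGAA match lies 58 bases before the start for Gbp2, 52 for Gbp7, 34 for Igtp and 64 for Irgm2. Irgm1 has a pair of overlapping matches, at 30 and 24 bases. The TTCNNNGAA matches lie 106 and 87 bases before the start for Gbp7, 45 for Igtp and 75 for Irgm2. In Igtp and Irgm2 the TTCNNNGAA match is followed after a gap of 2 bases by the GAAANNGAA match. Gbp2, Irgm1 and Gbp3 have GAAANNGAA and no TTCNNNGAA in their windows. The part of these letters in the direction of a member was not tested.

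Further GTPases that interferon induces were read from a list of 19, of which 17 are in the counts and 7 passed the filter. Mx1 and Mx2, among the 7, belong to neither family of the members. In untreated 3KR MEFs 3 of these 7 were called higher and 2 lower, with a median log2 fold change of 0.98, and after NCS 4 were called higher and 1 lower, with a median of 1.54. Without Mx1 and Mx2, 1 of 5 was called higher and 2 lower in untreated 3KR MEFs (median 0.78), and 2 higher and 1 lower after NCS (median 1.32). By edgeR 0 of the 7 responded to NCS in either genotype or differed in response, 0 did so at an unadjusted p under 0.05, and the Wald test of DESeq2 called 0.

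Gm4951, an immunity-related GTPase gene near Iigp1, held 2.49, 1.01 and 2.07 normalized counts in untreated wild-type MEFs, at or under the floor of 3 counts, and 9.07, 11.4 and 17.3 in untreated 3KR MEFs (FDR 7.38e-04). The wild-type level is too low for a fold change to be given. A pair of related genes near Irgm1 were lower, as Irgm1 was. The log2 fold change was -1.40 for 9930111J21Rik1 (SE 0.346, FDR 0.00184) and -1.05 for 9930111J21Rik2 (SE 0.102, FDR 8.00e-09). After NCS, 9930111J21Rik2 was called lower again (-0.77, SE 0.103, FDR 1.37e-06). For 9930111J21Rik1 the value missed the threshold (-0.87, FDR 0.0533), except with no filter on low counts (FDR 0.0420), without wild-type NCS replicate 1 (-1.04, FDR 0.0343) and without 3KR NCS replicate 1 (-1.34, FDR 0.0138).

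Gm12250, next to Igtp, was not called in untreated (0.98, SE 0.599, FDR 0.195) or NCS-treated MEFs (1.32, SE 0.630, FDR 0.0912), though it was after NCS without wild-type replicate 3 in both treatments (1.74, FDR 0.0481). Gbp2b, between Gbp3 and Gbp2, held 1.84 to 16.3 normalized counts in the 12 samples. Its log2 fold change was 0.78 in untreated MEFs (FDR 0.228) and 1.54 after NCS (SE 0.576, FDR 0.0316). That call was lost with the Wald test of DESeq2 (FDR 0.0771), with no filter (0.0561), without wild-type NCS replicate 2 (1.22, FDR 0.132) or 3 (1.44, FDR 0.0854) and without 3KR NCS replicate 2 (1.16, FDR 0.168). It was lost as well without wild-type replicate 3 in both treatments (FDR 0.0786).

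Mx1 and Mx2, the larger GTPases that block viruses, were both higher. In untreated MEFs the mean of Mx2 was 20.6 normalized counts for wild type and 95.5 for 3KR (log2 fold change 2.20, SE 0.201, FDR 2.87e-09), and that of Mx1 was 6.62 and 29.4 (2.12, SE 0.409, FDR 1.53e-04). After NCS the values were 2.17 for Mx2 (FDR 2.30e-09) and 3.19 for Mx1 (FDR 2.47e-06). Mx1 held 2.05, 5.53 and 3.98 normalized counts in NCS-treated wild-type MEFs, near the floor of 3 counts, so the size of its change is uncertain. In NCS-treated 3KR MEFs it held 38.5, 26.8 and 44.5.

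Upstream of the members come the ligands. Ifng and Ifnb1 had 0 counts in all 12 samples, which at the floor of 3 counts allows up to 0.0663 to 0.0904 CPM. Of 11 ligand genes listed 8 are in the counts, no count of any of them was above 1, and 0 passed the filter, so none was tested.

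Among the receptors and their kinases, 9 of 9 were tested, and 3 were called higher and 2 lower in untreated 3KR MEFs (median log2 fold change 0.03). After NCS 3 were higher and 1 lower (median 0.09). Ifngr1, the ligand-binding chain for interferon gamma, was higher without treatment (0.31, SE 0.0454, FDR 5.73e-06) and after NCS (0.19, SE 0.0465, FDR 0.00164). Ifngr2, the chain that signals with it, was lower in both (-0.61, SE 0.0408, FDR 1.19e-11, and -0.61, SE 0.0407, FDR 1.34e-11).

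The chains for type I interferon were not called. Ifnar1 had a log2 fold change of -0.00 in untreated MEFs (SE 0.0404, FDR 0.994) and 0.01 after NCS (FDR 0.915), and its sign changed with the processing. Ifnar2 had 0.08 (SE 0.0532, FDR 0.232) and 0.09 (FDR 0.175). In response to NCS, 1 receptor or kinase was called higher and 1 lower in wild-type MEFs, and 0 higher and 2 lower in 3KR MEFs (1 and 3 unadjusted, 0 and 2 by DESeq2). For the difference in response edgeR called 0, with 2 at an unadjusted p under 0.05, and the Wald test of DESeq2 called 0.

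Of the STAT and IRF factors that carry the signal to these promoters, 10 of 11 were tested. In untreated 3KR MEFs 7 were called higher and 0 lower (8 and 0 at an unadjusted p under 0.05, 7 and 0 by DESeq2), with a median of 0.45. After NCS the counts by edgeR were again 7 and 0 (8 and 1 unadjusted, 7 and 0 by DESeq2), with a median of 0.49. With NCS itself, 2 of the 10 were called higher and 1 lower in wild-type MEFs (3 and 3 unadjusted, 2 and 1 by DESeq2). In 3KR MEFs 2 were called higher and 4 lower (2 and 4 unadjusted, 2 and 3 by DESeq2). Of all tested genes 14.3% and 12.4% were called so in wild-type MEFs, and 15.8% and 15.0% in 3KR MEFs. For the difference in response 0 were called higher and 1 lower (0 and 2 unadjusted, 0 and 1 by DESeq2).

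Irf1, a factor that interferon gamma induces, held 784, 674 and 772 in untreated wild-type MEFs and 977, 994 and 987 in untreated 3KR MEFs, and after NCS 859, 901 and 809 in wild-type and 1118, 1268 and 1193 in 3KR MEFs. Between genotypes the log2 fold change of Irf1 was 0.40 (SE 0.0630, FDR 1.28e-05) without treatment and 0.48 (SE 0.0617, FDR 8.57e-07) after NCS. The part of Irf1 in the levels of the members was not tested.

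The response of Irf1 to NCS was 0.28 in 3KR MEFs (FDR 0.00121) and 0.20 in wild-type MEFs (SE 0.0638, FDR 0.0226). The wild-type call was lost with only the samples compared (FDR 0.0836), and without wild-type untreated replicate 2 (0.13, FDR 0.155) or wild-type NCS replicate 1 (FDR 0.0573) or 2 (0.16, FDR 0.121). Stat2 and Irf9, which belong to ISGF3, were higher in untreated 3KR MEFs, by 0.76 (SE 0.0570, FDR 8.66e-11) and 0.63 (SE 0.0530, FDR 6.45e-10), and so was Irf7, by 2.11 (SE 0.167, FDR 2.37e-10). After NCS the 3 values were 0.67, 0.51 and 1.98.

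Other genes that interferon induces were counted beside the members. Of 19 tested genes of the interferon gamma list, 10 were called higher and 0 lower in untreated 3KR MEFs (11 and 0 unadjusted and by DESeq2), with a median of 0.43, and after NCS 7 higher and 1 lower, with a median of 0.09. Rnf213, Xaf1 and Parp14 had the lowest p-values of that list, at 1.24, 1.43 and 1.16. Of 23 genes of the ISGF3 type, 22 were called higher and 0 lower (22 and 0 unadjusted and by DESeq2), with a median of 1.39, and after NCS 20 higher and 0 lower (21 and 0 unadjusted, 20 and 0 by DESeq2), with a median of 1.15. Among these Isg15 had 2.03, Trim25 0.85 and Ifit1 2.41.

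In response to NCS in 3KR MEFs, 1 of the 23 ISGF3-type genes was called higher and 6 lower (1 and 10 unadjusted, 1 and 5 by DESeq2), beside 0 and 4 of the 8 members and 15.8% and 15.0% of all tested genes. The counts were 1 and 9 with the replicate block and 1 and 10 without wild-type replicate 3. In wild-type MEFs 3 were called higher and 2 lower (4 and 3 unadjusted, 4 and 2 by DESeq2). The median of the ISGF3-type genes in untreated 3KR MEFs, 1.39, stood above that of the members, 0.82, and Gbp2 and Irgm1 went the opposite way from the 22.

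Regulators of the pathway and partners of the GTPases were mixed. Of 7 feedback inhibitors, 3 were called higher and 1 lower in untreated 3KR MEFs and 2 and 1 after NCS (medians 0.14 and 0.12), with Usp18 at 2.42, Socs3 at 0.65 and Ptpn11 at -0.17. Of 14 tested genes of cytosolic DNA sensing, 8 were called higher and 0 lower without treatment (8 and 0 unadjusted and by DESeq2, median 0.63) and 7 and 0 after NCS (8 and 0 unadjusted, 7 and 0 by DESeq2, median 0.47). These include Tmem173 at 0.65, Samhd1 at 0.30 and Ifi204 at 0.65.

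Autophagy proteins guide the GTPases to vacuoles, and 10 of their genes were read. Of these 10, 0 were called higher and 3 lower in untreated 3KR MEFs (0 and 3 unadjusted, 0 and 2 by DESeq2, median -0.06), and 0 and 6 after NCS (0 and 6 both unadjusted and by DESeq2, median -0.12). Of all tested genes 23.6% were called lower in each of these comparisons. Without wild-type replicate 3 in both treatments the counts were 0 and 5, and 0 and 6 after NCS. In response to NCS 3 were called higher and 2 lower in wild-type MEFs (5 and 2 unadjusted, 4 and 2 by DESeq2), with 5 and 2 under DESeq2 size factors in edgeR and 6 and 2 with the replicate block. In 3KR MEFs 2 were called higher and 1 lower (3 and 1 unadjusted, 2 and 1 by DESeq2). Between genotypes without treatment, Gabarapl2 had -0.30, Atg16l1 -0.16 and Atg12 -0.15, the last with groups that overlap. The call of Atg12 (FDR 0.0401) was lost with the Wald test of DESeq2 (0.0648), with only the samples compared (0.0660) and without wild-type replicate 1 (-0.10), wild-type replicate 2 (-0.12) or any of 3KR replicates 1 (-0.16), 2 (-0.17) and 3 (-0.13). Of 12 tested genes of the inflammasome and of vacuole lysis, where guanylate-binding proteins act, 8 were called higher and 1 lower, and 7 and 1 after NCS (medians 0.72 and 0.64), with Lgals3 at 1.02, Gsdmd at 0.87 and Nlrp3 at 1.71.

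Of all tested genes, the nearest to the members' median pattern were Mmp11, Lat2, Cx3cl1, Atp8b1 and Gpr65. The measure is the mean absolute gap in log2 CPM to that pattern, over the differences of the other 3 group means from untreated wild-type MEFs (-0.07 for wild-type NCS, 0.81 for untreated 3KR and 0.53 for 3KR NCS). It was 0.0160 for Mmp11 and 0.0343 for Gpr65, which was not called between genotypes without treatment (FDR 0.0561). The members themselves ranged from 0.158 for Gbp9 and 0.212 for Gbp7 to 0.793 for Iigp1, 0.955 for Gbp2 and 1.003 for Irgm1.

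Markers of cell types were read for the same samples. Fibroblast markers were present in every sample, with Col1a1 the most abundant and a summed level of 57022 to 59311 CPM in untreated wild-type MEFs, 59271 to 61773 after NCS, 61258 to 62989 for 3KR MEFs without treatment and 60681 to 62979 for 3KR MEFs after NCS. Of these 10 markers, 8 were called higher and 2 lower in untreated 3KR MEFs and 7 and 2 after NCS (medians 0.27 and 0.22). Pdgfra had 1.67, Lum 1.34 and Dcn 0.75 without treatment, and the 2 lower, named after their values were seen, were Fn1 (-0.35) and Vim (-0.16). In response to NCS 5 were called higher and 1 lower in wild-type MEFs (8 and 1 unadjusted, 6 and 1 by DESeq2), and 1 and 6 in 3KR MEFs (1 and 6 unadjusted, 1 and 5 by DESeq2).

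Macrophages are known for these GTPases, and macrophage markers also differed between the genotypes. Of 17 markers, 16 were called higher and 0 lower in untreated 3KR MEFs (17 and 0 unadjusted, 16 and 0 by DESeq2), with a median of 1.10, and 14 and 0 after NCS (14 and 0 unadjusted and by DESeq2), with a median of 0.97. Their summed level was 161.6, 154.5 and 139.8 CPM in untreated wild-type MEFs and 282, 285 and 279 CPM in untreated 3KR MEFs. After NCS it was 167, 171 and 152 CPM in wild-type MEFs and 259, 262 and 255 CPM in 3KR MEFs. Lyz2 was the most abundant, with 57.1 to 73.9 CPM in wild-type and 94.5 to 105 CPM in 3KR MEFs, and no marker was at 0 throughout. The lowest p-values were those of Csf1r (1.30), Laptm5 (1.10) and Cd14 (1.31). In response to NCS 2 were called higher and 0 lower in wild-type MEFs (4 and 0 unadjusted, 1 and 0 by DESeq2), with a median of 0.11. In 3KR MEFs 0 were called higher and 3 lower (1 and 7 unadjusted, 0 and 2 by DESeq2), with a median of -0.15, and without wild-type replicate 3 the counts were 1 and 6. The part of macrophages in the levels of the members was not tested.

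Of 12 markers of T and NK cells, 1 passed the filter and 0 were called between genotypes by edgeR (0 unadjusted, 0 by DESeq2). Cd3e, Cd3g, Cd8a, Ncr1 and Prf1 were at 0 in all samples, 8 of the 12 never exceeded 3 counts, and the sum was 1.17 to 1.90 CPM, most of it Lck. Of 10 markers of B and dendritic cells, 3 were tested and 1, Zbtb46, was called lower (-0.88), and 5 never exceeded 3 counts. Their sum was 6.55 to 15.8 CPM, most of it Zbtb46. The part of these cells in the levels of the members was not tested.

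Schwann cell and neural crest markers differed strongly. Of 11, 0 were called higher and 8 lower in untreated 3KR MEFs (0 and 8 unadjusted and by DESeq2), with a median of -2.17, and 1 and 8 after NCS, with a median of -2.25. Their sum was 278 to 297 CPM in wild-type and 82.3 to 85.4 CPM in 3KR samples. Ngfr (-2.17) was the most abundant in wild-type samples and Egr2 in 3KR samples, and Sox10 had -2.39. Of 6 tested endothelial markers, 0 were called higher and 2 lower (0 and 2 unadjusted and by DESeq2), Esam and Emcn, both at -2.44, while the median was 0.11. After NCS 1 was called higher (Vwf, named after its value was seen) and 2 lower, with a median of 0.01. The endothelial markers had a sum of 10.5 to 12.5 CPM in wild-type and 6.71 to 7.61 CPM in 3KR samples. Esam was the most abundant of them in wild-type samples and Kdr in 3KR samples. Of 3 tested epithelial markers, Cdh1 (2.33) and Krt8 were called higher and Krt18 (-0.60) lower. Krt8 had a mean of 2.80 normalized counts in untreated wild-type MEFs, too low for a fold change to be given. The epithelial markers had a sum of 2.40 to 3.30 CPM and Esrp1 at 0 throughout. Krt18 was the most abundant in every sample but untreated 3KR replicate 3, where Cdh1 was. Without untreated 3KR replicate 3, Krt18 had -0.41 and was not called (FDR 0.111). The cultures of the genotypes thus differ in these markers too, and the part of such differences in the levels of the members was not tested.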

How the data were processed

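RNA from 12 samples was sequenced after a stranded library preparation. As deposited, each sample has its own file of unnormalized counts, the number of reads that fell on each Ensembl gene ID. The processing notes of the submitters name TopHat, HTSeq, DESeq and mm9, and how the counting used the strand is not given in the sources used here. Of the 37991 IDs, 32919 are in GENCODE M21 (GRCm38), which carry 99.4% or more of the counts in any sample, and 5072 are not. Symbols, gene order and exon lengths come from that release.

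Groups were taken from the sample labels. Counts were filtered with filterByExpr, scaled by TMM (factors 0.973 to 1.02) and fitted with edgeR 4.0.16 in R 4.3.3, with 1 coefficient per group and 8 residual degrees of freedom, at a common biological coefficient of variation of 3.95%. The quasi-likelihood F test was two-sided, and p-values were adjusted by the Benjamini-Hochberg method over 15327 genes, with a threshold of 0.05. The SE is the absolute log2 fold change over the square root of F. Size factors for normalized counts were those of DESeq2 1.42.0 (0.857 to 1.21). The 5 comparisons were genotype in each treatment, NCS in each genotype, and the difference between these responses. They share samples. The smallest p that an exact test of 3 samples against 3 allows is 0.1, so no such test was used. RPKM used TMM library sizes and the union of annotated exons. CPM other than that of the floor of 3 counts used the same sizes, which are totals over the tested genes times the TMM factor. The edgeR fit, the Wald test of DESeq2 and the replicate block were also run on simulated counts. Only genotype changed genes in those counts, so recovery of a response to NCS was not checked, and the other alternatives were not run on them.

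The members and the gene lists (other GTPases of these families and Mx genes, ligands, receptors and kinases, STAT and IRF factors, feedback inhibitors, DNA sensing, interferon gamma and ISGF3 types, loading machinery, inflammasome and vacuole lysis, cell type markers, sex-linked genes) were chosen with earlier results of these data known. Named genes are the members, the other tested GTPases, Ifng, Ifnb1, 8 genes of the receptors and factors, and the called genes among the 3 lowest p-values of each remaining list in the untreated genotype comparison. Some genes that this rule names are left out. E2f1, Xist and Ddx3y are named too, and so are the 5 genes nearest in pattern, from log2 CPM with a prior count of 2. Markers that are the most abundant of a list, or at 0 throughout, are named for their level. Other genes given with a fold change or a call are marked as chosen after their values were seen.

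Alternatives were DESeq2 size factors in edgeR, the Wald test of DESeq2, no filter, a minimum of 10 counts in every sample, a fit of only the samples compared, a replicate block and each sample left out in turn. TMM or library totals were tried for normalized counts, DESeq2 size factors for RPKM, and log2 CPM without TMM for the nearest genes. Leaving out wild-type replicate 3 of both treatments and using exons of the basic annotation were added after seeing the data.

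Whether replicates of the same number share an embryo is not stated, nor whether replicates of a group come from separate embryos, so a p-value measures spread between these samples. Pairing was checked by correlating deviations from group means over 11758 genes. Samples with the same number, without and with NCS, gave 0.141, 0.136 and 0.325 in wild-type MEFs, where samples 1 and 2 gave 0.127 and 0.133 across numbers and pairs with replicate 3 gave -0.217 to -0.197. They gave -0.0091, 0.00644 and -0.091 in 3KR MEFs. Across genotypes the same numbers gave 0.00739, 0.00838 and -0.0162 without treatment and -0.0146, 0.000329 and -0.0386 after NCS.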

Additional observations from a re-analysis of the deposited data

Results flagged for a closer look

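Results are given here because the response to NCS differed between the genotypes when the difference itself was tested with the quasi-likelihood test of edgeR. Each value is the log2 response in 3KR MEFs minus that in wild-type MEFs. Only genes named above are given. The test called 1 of 8 members, 5 of 10 fibroblast markers and 3 of 23 ISGF3-type genes, all lower. Also lower were 2 of 19 interferon gamma list genes, 2 of 17 macrophage markers and 1 of 10 STAT and IRF factors. No gene of the other lists was called. Over all tested genes 3.73% were called, 285 higher and 287 lower. These counts depend on the processing.

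Among the members, Gbp2 had a difference of -0.40 (FDR 0.0271), from 0.18 in wild-type MEFs and -0.22 in 3KR MEFs. Rnf213, which interferon gamma induces, had -0.35 (FDR 0.0344), from 0.11 and -0.24. Its call held without untreated wild-type replicate 3, wild-type NCS replicate 3 or 3KR NCS replicate 2, and without any other sample the FDR was 0.0531 to 0.109. Isg15, of the ISGF3 type, had -0.56 (FDR 0.0134), from 0.06 and -0.50, and without wild-type NCS replicate 1 it had -0.44 (FDR 0.0670).

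Among fibroblast markers, Pdgfra had -0.16 (FDR 0.0423), from -0.04 and -0.20. This call held without untreated wild-type replicate 3, wild-type NCS replicate 3 or 3KR NCS replicate 1, and without any other sample the FDR was 0.0587 to 0.137. With at least 10 counts in every sample it was 0.0530. Lum had -0.37 (FDR 2.79e-04), from 0.19 and -0.18. Dcn had -0.28 (FDR 0.00876), from 0.10 and -0.18.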

How the results depend on the processing

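For the members, 226 of 232 log2 fold changes under other settings of the processing kept their direction and their side of the threshold, 4 lost the call and 2 gained 1. With each sample left out, 262 of 288 kept both, 14 lost the call, 4 gained it and 8 changed sign. Without wild-type replicate 3 in both treatments, added after seeing the data, 38 of 40 kept both and 2 changed sign. For the other named genes 782 of 806, 790 of 864 and 131 of 139 kept both.

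The members called for NCS in wild-type MEFs, 2 in the results above, were 1 with the Wald test of DESeq2, with no filter on low counts, with at least 10 counts in every sample and with only the samples compared, and 1 to 2 with a sample left out. With the replicate block they were 3. The members called for the difference in response, 1 in the results above, were 0 to 1 with a sample left out. Over all genes that difference passed for 572 genes, for 345 to 823 with any sample but untreated wild-type replicate 3 left out, for 1159 without that sample, for 1379 with the replicate block and for 1842 without wild-type replicate 3 in both treatments. The cause was not tested.

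Signs changed for values near 0 that were not called. The genotype difference of Ifnar1 without treatment was 0.00513 with DESeq2 size factors, 0.00526 with the Wald test of DESeq2, 0.0107 with no filter, 0.00377 with only the samples compared, 0.0122 without wild-type replicate 3 and -0.0151 to 0.00883 with a sample left out. After NCS it was -0.0364 to 0.0448 with a sample left out. With a sample left out, the response to NCS ran from -0.35 to 0.10 for Igtp and from -0.17 to 0.0507 for Iigp1 in wild-type MEFs, and from -0.21 to 0.0113 for Gbp9 in 3KR MEFs. The difference in response ran from -0.0412 to 0.0941 for Irgm1 and from -0.0952 to 0.00455 for Irgm2. Without wild-type replicate 3, Iigp1 in wild-type MEFs had 0.0417 and the difference of Irgm1 was -0.0161.

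Group means of normalized counts kept within the spread between replicates in 64 of 64 cases, and RPKM in 32 of 32 with DESeq2 size factors, but 14 of 32 moved by more with exons of the basic annotation. The 5 nearest genes were the same 5 without TMM. Only the samples compared could not be tried for the difference in response, which uses all 12. Low counts limit Gm4951, Gbp2b, Gm12250, Mx1 and Krt8 most. Reads of overlapping gene models and of close relatives limit Igtp, Irgm2 and Gbp9.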

Other observations

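Of the list of 19 further GTPase genes, 12 were in no test. Gbp4, Gbp8 and Gbp11, relatives of Gbp9 in the cluster on chromosome 5, were among the genes that did not pass the filter. Around Iigp1, on chromosome 18, the tested neighbours Smim3, Dctn4, Rbm22 and Synpo were read after their values were seen. Between genotypes without treatment Smim3 (-0.11) and Dctn4 (-0.07) were not called, and Rbm22 (0.13, FDR 0.0151) and Synpo (0.11, FDR 0.0200) were called higher. After NCS the same 2 were called higher, Rbm22 (0.15, FDR 0.00701) and Synpo (0.11, FDR 0.0175).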
